A study of Mus musculus with 12 samples.

Results

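Inward rectifier, tandem-pore and calcium- or sodium-activated potassium channels were followed as a group of 37 genes among the 24490 listed for mouse dorsal root ganglia (DRG). The members were every gene whose symbol is Kcnj, Kcnk, Kcnn or Kcnt followed by a number, together with Kcnma1 and Kcnu1, with no filter on expression. They comprised 15 inward rectifiers (Kir, Kcnj genes), 14 tandem-pore channels (K2P, Kcnk genes), 4 small- and intermediate-conductance calcium-activated channels (SK and IK, Kcnn genes), 2 sodium-activated channels (Kcnt genes), and the large-conductance channel BK with its relative Slo3. PolyA-selected RNA of adult C57Bl/6 mice was sequenced in 3 groups of 4 samples, and the labels give no genotype or treatment beyond strain and age. Intact samples were whole ganglia of 1 mouse each, snap frozen. Dissociated samples were acutely dissociated, unsorted ganglia pooled from 2 mice. MACS samples were dissociated ganglia pooled from 8 mice and passed through magnetic cell sorting (MACS), in which cells bound by antibodies against non-neuronal cells are held back on a column.

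Potassium channels hold a sensory neuron near its resting potential and end its firing. Inward rectifiers pass potassium best near rest and include the G-protein-gated GIRK channels that opioid receptors open, the ATP-sensitive KATP channels and the glial channels that take up potassium released by firing neurons. Tandem-pore channels carry background leak currents that respond to acid, stretch, temperature, lipids or anaesthetics. SK, IK and BK channels open when calcium enters during an action potential, and the Kcnt channels open when sodium accumulates.

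Expression was measured in FPKM, the number of fragments scaled to transcript length and to all mapped fragments, so levels of different genes can be compared per length. From the spacing of low values, 13600000 to 19500000 fragments per sample were estimated, so that 1 FPKM was worth about 13.6 to 19.5 fragments per kilobase of transcript. In Dissociated samples 1 and 2 the genes differed least (median absolute log2 ratio 0.0370, against 0.0658 to 0.336 in other pairs of one group). The labels do not say whether they share mice or a preparation. With both averaged into 1 sample, Kcnj6 did not pass in MACS against Dissociated samples, nor did Kcnj16, Kcnk4 and Kcnn1 in Dissociated against Intact samples (limma adjusted p = 0.071, 0.091, 0.05003 and 0.060), and over all genes the number that passed in the latter comparison went from 2793 to 1692. Intact sample 1 stood apart from the other Intact samples (0.293 to 0.336, against 0.0658 to 0.0839 among the others), and its 10 skeletal muscle genes summed to 3246 FPKM against 16.9 to 73.0 FPKM in the others. Pan-neuronal markers summed to between 3679 and 5062 FPKM in every sample. Satellite glia markers summed to 2655 to 3187 FPKM in Dissociated and 128 to 270 FPKM in MACS samples. Haemoglobin and other red blood cell genes summed to 128 to 374 FPKM in Dissociated, but 1521, 2030, 10073 and 12884 FPKM in MACS samples 1 to 4. In such bulk samples, fewer cells of a type and less RNA per cell cannot be told apart.

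Of the 37 genes, 25 reached a group mean of 1 FPKM in Intact, Dissociated or MACS samples. That level was reached by 23 genes in Intact, 23 in Dissociated and 20 in MACS samples, and all 4 samples exceeded 5 FPKM for 7, 10 and 7 genes, respectively. The remaining 12 genes were Kcnj1, Kcnj5, Kcnj8, Kcnj9, Kcnj14, Kcnj15, Kcnk6, Kcnk7, Kcnk9, Kcnk15, Kcnk16 and Kcnn3, and no sample exceeded 1.41 FPKM for any of them. Kcnj1, a renal channel, and Kcnk15 were listed at 0 in every sample.

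**Figure D1:**
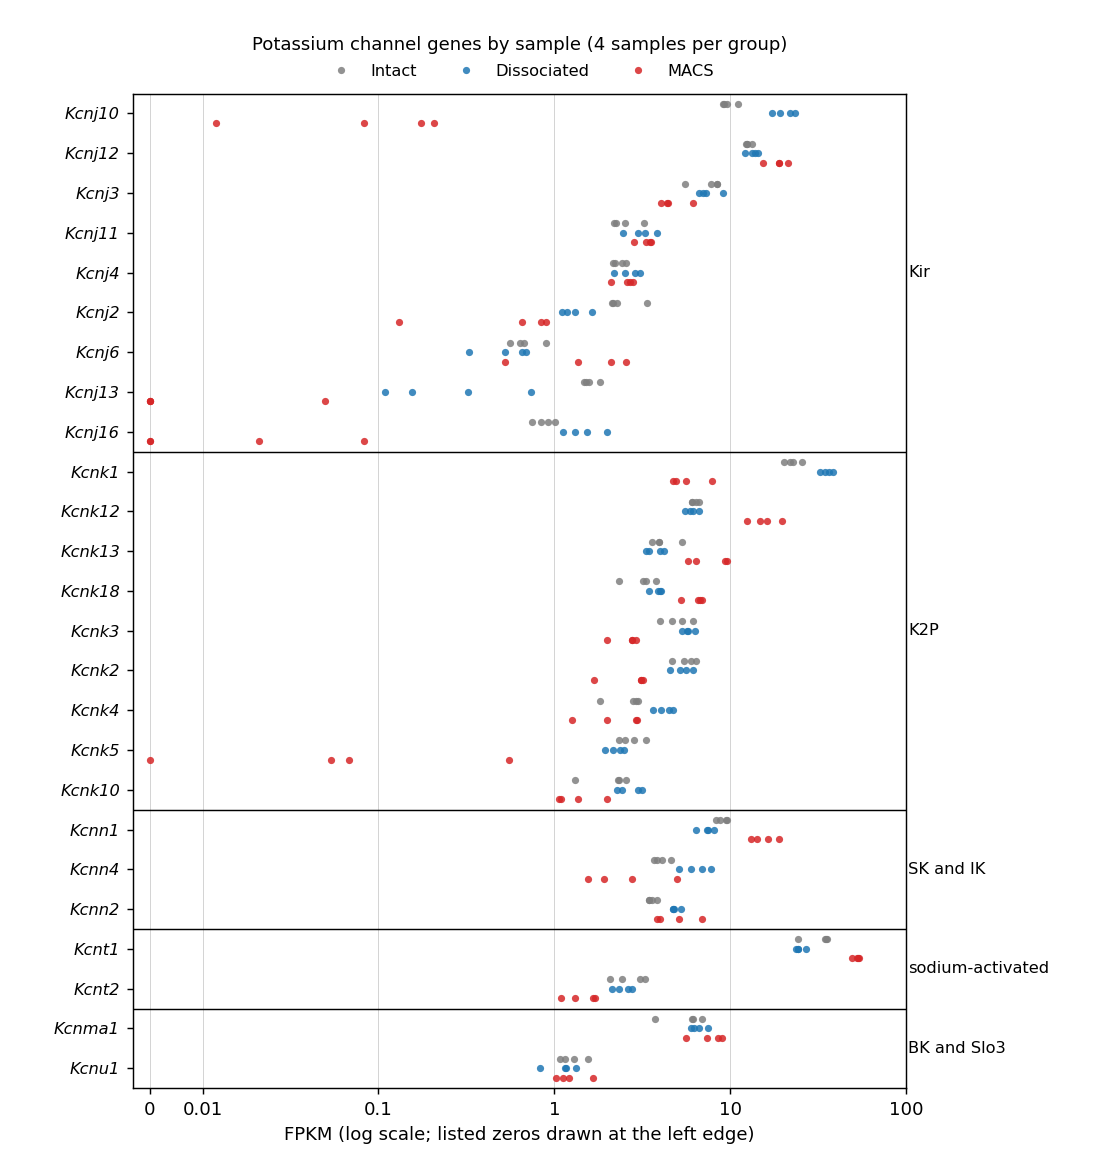
FPKM (log axis, listed zeros drawn at the left edge) of the 25 genes that reached a group mean of 1 FPKM, as 1 point per sample for 4 Intact (grey), 4 Dissociated (blue) and 4 MACS (red) samples, ordered by subfamily. Kcnt1 and Kcnk1 lie furthest to the right, and the MACS points of Kcnj10, Kcnj16, Kcnj13 and Kcnk5 lie far to the left of the Dissociated points.

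The summed FPKM of all 37 genes was 157 ± 8.24 FPKM in Intact, 176 ± 4.23 FPKM in Dissociated and 165 ± 5.45 FPKM in MACS samples (mean ± SD, n = 4 in each), with ranges of 145 to 162, 171 to 182 and 159 to 172 FPKM. K2P genes made up 35.6 ± 1.43% of the sum in Intact, 39.7 ± 1.19% in Dissociated and 27.8 ± 2.19% in MACS samples. Kir genes made up 26.9 ± 1.39%, 29.8 ± 1.69% and 19.4 ± 2.19%. The Kcnt genes, almost entirely through Kcnt1, made up 22.2 ± 2.67%, 15.4 ± 0.476% and 32.7 ± 1.33%. SK and IK genes held 10.9 ± 0.918%, 10.8 ± 0.763% and 14.6 ± 1.55%, and BK with Slo3 held 4.42 ± 0.783%, 4.36 ± 0.391% and 5.39 ± 0.648%. Between Dissociated and MACS samples the ranges of these shares did not overlap for the first 4 of these subfamilies, and they overlapped for BK with Slo3. The summed FPKM of SK and IK genes did overlap, at 16.7 to 20.8 FPKM in Dissociated and 20.5 to 25.6 FPKM in MACS samples. The sums and shares are descriptions and were not tested.

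**Figure D2:**
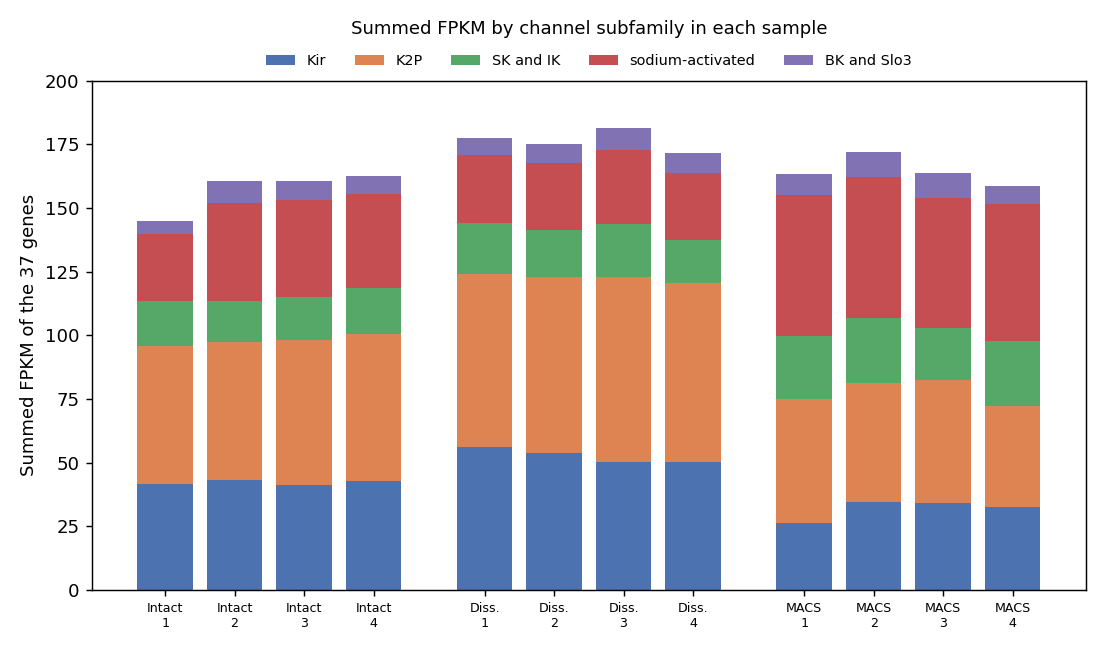
Summed FPKM of the 37 genes in each of the 12 samples (Diss., Dissociated), stacked by subfamily from Kir at the bottom to BK and Slo3 at the top. The Kir and K2P blocks are shortest and the sodium-activated block is tallest in the 4 MACS samples.

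The leading genes also differed. In Intact samples Kcnt1 (32.3 ± 5.28 FPKM) and Kcnk1 (22.7 ± 2.28 FPKM) held 20.6% and 14.4% of the sum, and their ranges overlapped only if Intact sample 1 was counted, where Kcnt1 measured 24.4 FPKM. In Dissociated samples Kcnk1 (35.5 ± 2.61 FPKM) led, followed by Kcnt1 (24.7 ± 1.47 FPKM) and Kcnj10 (20.5 ± 2.70 FPKM), and the ranges of Kcnk1 and Kcnt1 did not overlap. In MACS samples Kcnt1 led at 52.4 ± 2.16 FPKM and 31.9% of the sum. Kcnj12 (18.7 ± 2.52 FPKM), Kcnk12 (15.7 ± 3.02 FPKM) and Kcnn1 (15.6 ± 2.54 FPKM) followed with overlapping ranges. Kcnk1 was at 5.80 ± 1.45 FPKM in these samples.

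The comparison of MACS with Dissociated samples asked which of these genes are found in the small-diameter, nociceptor-rich neurons that pass the column. Genes that averaged 1 FPKM or more across both groups were tested, which admitted 22 of the 37. In MACS samples 7 were higher, against a background of 18.8% of the 12038 genes tested, and 10 were lower, against 27.7%, at a limma adjusted p under 0.05. Their median log2-fold change was -0.04, as it was over all genes tested (-0.04). Log2-fold changes below are ± SE, on the log2(FPKM + 0.1) scale, with Benjamini-Hochberg adjusted p-values from limma for 4 against 4 samples. Adding the criteria that the log2 ratio of means be beyond 0.5 and that the higher mean exceed 5 FPKM, 5 were enriched (background 8.15%) and 6 depleted (background 12.5%). The enriched genes were Kcnk12, Kcnt1, Kcnn1, Kcnk13 and Kcnk18, and the depleted genes were Kcnj10, Kcnk1, Kcnn4, Kcnk3, Kcnk2 and Kcnj3. Kcnj10, Kcnk5 and Kcnj6 entered the test only through the group in which they were high, so their presence among the genes that passed carries no weight as a count. In the same comparison 9 of 11 small-diameter nociceptor markers were higher, while 10 of 11 large-diameter neuron, 8 of 8 satellite glia, 6 of 7 Schwann cell, 6 of 7 fibroblast and 3 of 3 tested macrophage markers were lower. Of 10 pan-neuronal markers 4 were higher and 2 lower, and 11 of 12 tested entries of red blood cell genes were higher. A gene can be listed in more than 1 entry, and the sums above use 1 entry per gene. None of 7 endothelial markers passed (limma adjusted p; 0 of 7 at an unadjusted p under 0.05), and they summed to 50.3 to 63.1 FPKM in Dissociated and 60.7, 15.6, 53.6 and 85.6 FPKM in MACS samples 1 to 4. Markers low in 1 group, among them all 3 tested macrophage markers, entered the test only through the other group. The marker counts are therefore descriptions. The part of these cell types in each result below was not tested. Without MACS samples 3 and 4, which held most haemoglobin RNA, 6 genes were higher and 11 lower, and 5 and 6 met all criteria. The share over all genes was not computed for that fit.

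**Figure D3:**
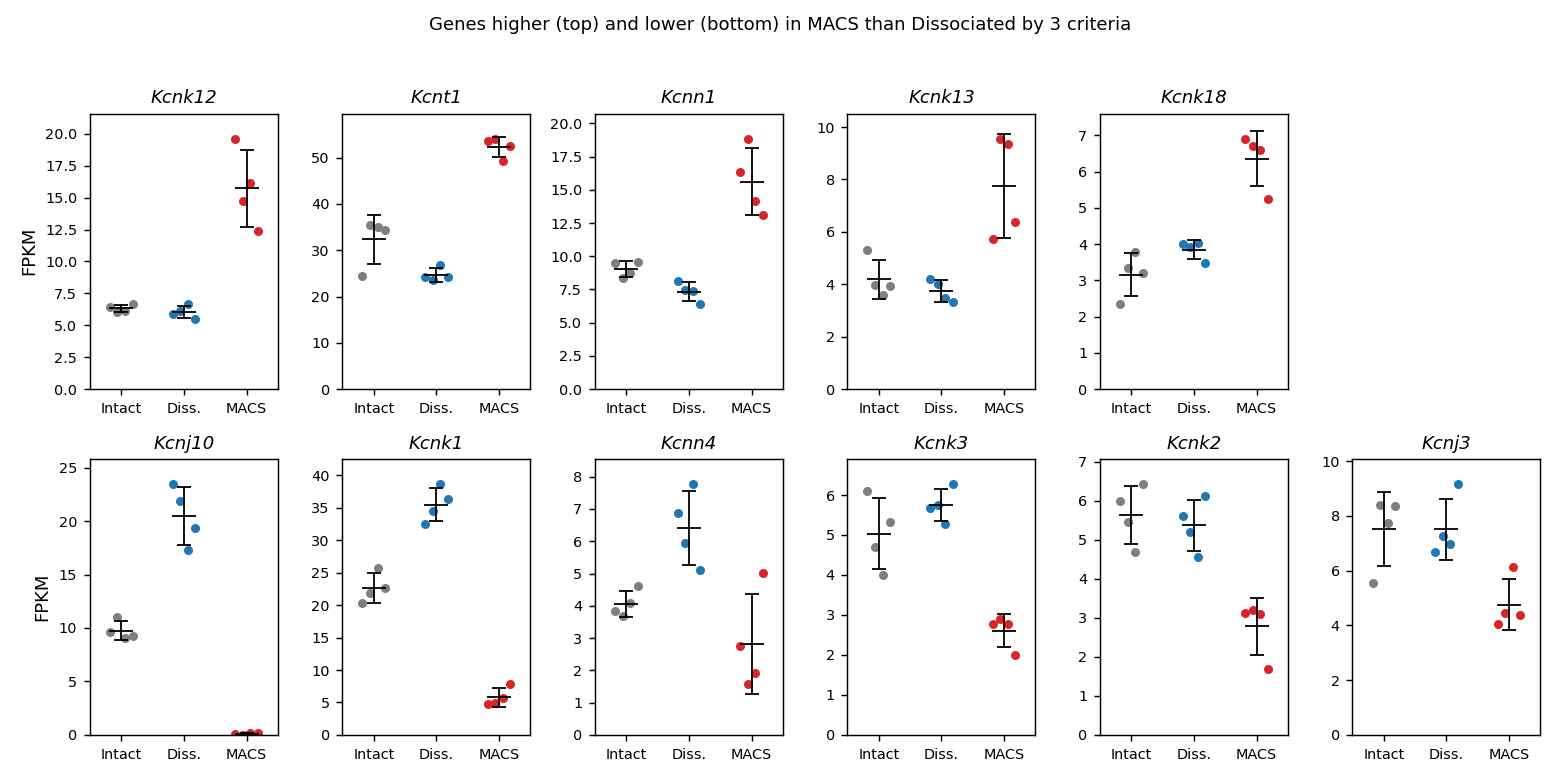
FPKM (linear axes from 0) of the 5 genes enriched (top row) and the 6 depleted (bottom row) in MACS against Dissociated samples, with 1 point per sample and the mean ± SD of 4 samples in black (Diss., Dissociated). In each panel the 4 MACS points lie all above or all below the 4 Dissociated points; Kcnk12 measured 12.4 to 19.6 FPKM in MACS and 5.52 to 6.65 FPKM in Dissociated samples.

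The comparison of Dissociated with Intact samples asked what dissociation itself changes before sorting. It uses the same 4 Dissociated samples, so the comparisons are not independent and their values are only set side by side. Of 23 genes tested, 6 were higher in Dissociated samples (background 14.8% of 12392 genes) and 2 were lower (background 7.79%). The median log2-fold change was 0.17, against 0.01 over all genes tested. Kcnj10, Kcnk1, Kcnn4, Kcnk4, Kcnj16 and Kcnn2 rose, and Kcnj2 and Kcnn1 fell. Kcnj16 entered the test only through the Dissociated samples, in which it was high, and carries no weight in this count. Of the marker lists, 7 of 7 endothelial, 7 of 11 large-diameter neuron, 4 of 10 pan-neuronal and 2 of 8 satellite glia markers rose. Of 11 small-diameter nociceptor markers 4 rose and 1 fell, and of 6 tested pericyte and vascular smooth muscle markers 3 rose and 1 fell. Markers that fell were 7 of 7 fibroblast, 6 of 7 macrophage and 7 of 9 tested skeletal muscle genes. The skeletal muscle genes, Aif1 and Cx3cr1 averaged below 1 FPKM in Dissociated samples and entered the test only through the Intact samples. These genes carry no weight in the counts. Without Intact sample 1, 7 genes were higher and 3 lower, a fit for which the share over all genes was not computed.

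**Figure D4:**
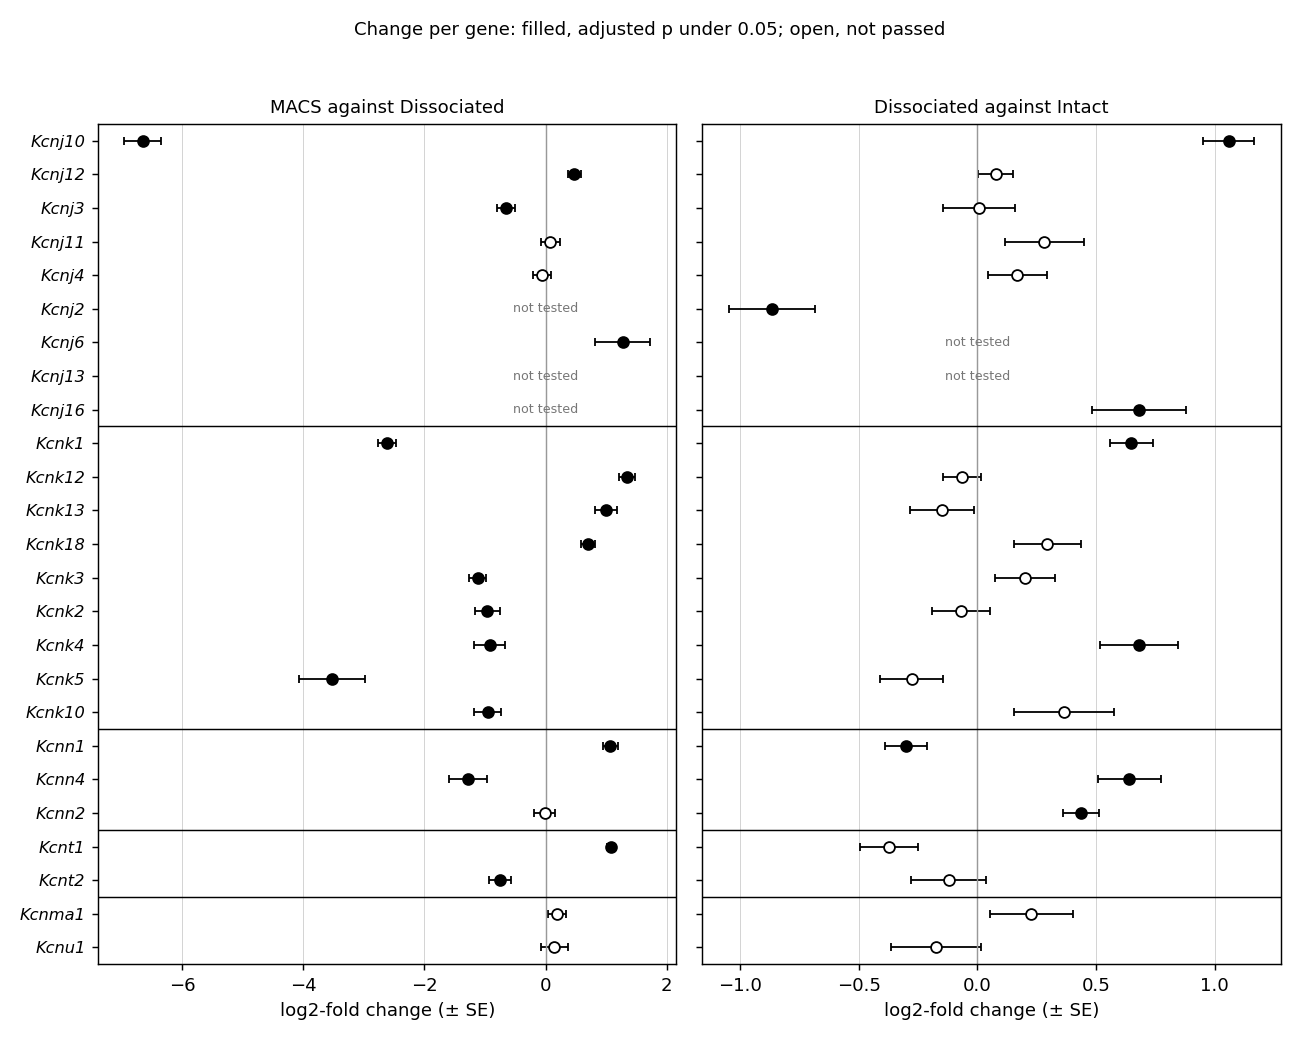
Log2-fold change ± SE, on the log2(FPKM + 0.1) scale, of the 25 genes for MACS against Dissociated (left) and Dissociated against Intact samples (right), with 8 samples in each fit. Filled points passed at an adjusted p under 0.05. Kcnj10 shows the lowest value on the left (-6.65) and the highest on the right (1.06).

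Of 6 inward rectifier genes tested in MACS against Dissociated samples, 2 rose (Kcnj12 and Kcnj6), 2 fell (Kcnj10 and Kcnj3) and 2 did not pass (Kcnj11 and Kcnj4), against 18.8% higher and 27.7% lower over all genes. Kcnj6 and Kcnj10 were tested only through the group in which they were high, so this count is not read against that background. Kcnj10 encodes Kir4.1, the potassium-buffering channel of satellite glia and astrocytes. It lies at chr1:172341210-172374085 in mm10. It measured 9.61, 11.02, 9.10 and 9.22 FPKM in Intact, 23.4, 21.8, 17.3 and 19.3 FPKM in Dissociated and 0.0829, 0.0120, 0.174 and 0.206 FPKM in MACS samples 1 to 4. The groups were fully separated, with Dissociated highest and MACS near 0. The mean was 172-fold higher in Dissociated than MACS samples, and the log2-fold change was -6.65 ± 0.30 (limma adjusted p = 4.2e-07), or -4.26 with a pseudocount of 1 and -7.74 with 0.01. Against Intact samples, Dissociated samples were 2.102-fold higher, with a log2-fold change of 1.06 ± 0.11 (limma adjusted p = 0.0012). The summed satellite glia markers were 15.4-fold higher in Dissociated than MACS samples and 1.28-fold higher in Dissociated than Intact samples. Among them Slc1a3, the glial glutamate transporter, measured 4.62, 5.34, 4.50 and 4.87 FPKM in Dissociated and 0.0180, 0.0467, 0.0141 and 0.0670 FPKM in MACS samples, while Glul, glutamine synthetase, measured 160, 157, 138 and 144 FPKM and 104, 82.3, 105 and 111 FPKM.

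Kcnj16 encodes Kir5.1, which joins Kir4.1 in a heteromeric channel. It measured 0.751, 0.916, 0.840 and 1.01 FPKM in Intact, 1.54, 1.99, 1.12 and 1.32 FPKM in Dissociated and 0.0210, 0, 0.0828 and 0 FPKM in MACS samples 1 to 4, and again the groups did not overlap. It was below the mean of 1 FPKM for the test against MACS samples, where 2 of 4 samples were listed at 0, so no fold is given. Without the filter its log2-fold change was -3.68 ± 0.28 (limma adjusted p = 1.5e-05). Against Intact samples the log2-fold change was 0.68 ± 0.20 (limma adjusted p = 0.037), or 0.40 with a pseudocount of 1. That call did not hold when Intact sample 2, 3 or 4 or Dissociated sample 1, 2 or 4 was left out (limma adjusted p = 0.058 to 0.10). Nor did it hold with all 12 samples in one fit (limma adjusted p = 0.16). Kcnj15, encoding Kir4.2, stayed at or below 0.397 FPKM in every sample.

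The 250 bases upstream of the RefSeq start of Kcnj10 (chr1:172340960-172341209, plus strand, GRCm38.p6) are shown because this gene had the widest difference of the group. They were searched on both strands for the TATA box TATAAA, the GC box GGGCGG and the cAMP response element TGACGTCA. They were also searched for ACAATG, bound by Sox factors, and for its variant with the letters ACAAAG. Matches stand in capitals, and a match is a description of letters only. The sequence holds GGGCGG at 2 places, both read from the other strand, a GC content of 62.0% and 17 CpG. Among 32851 mouse promoter windows of this length, 32.7% held GGGCGG, 12.4% TATAAA, 1.55% TGACGTCA, 10.7% ACAATG and 16.5% ACAAAG, and the median GC content was 52.4%.
Kcnj10: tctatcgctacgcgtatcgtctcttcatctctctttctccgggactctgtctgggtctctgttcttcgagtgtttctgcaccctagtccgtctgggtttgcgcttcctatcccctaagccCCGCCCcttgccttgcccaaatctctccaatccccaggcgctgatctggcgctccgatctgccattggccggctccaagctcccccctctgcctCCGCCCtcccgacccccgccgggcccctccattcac

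Strong inward rectifiers of the Kir2 family were led by Kcnj12, encoding Kir2.2. It measured 12.4, 12.4, 12.5 and 13.4 FPKM in Intact, 13.8, 13.4, 14.4 and 12.1 FPKM in Dissociated and 15.3, 21.4, 19.0 and 19.1 FPKM in MACS samples 1 to 4. All 4 MACS samples were above all 8 others, with a log2-fold change of 0.47 ± 0.11 (limma adjusted p = 0.0051) against Dissociated samples. The log2 ratio of the means, 0.48, was below the 0.5 set for enrichment. Against Intact samples the log2-fold change was 0.08 ± 0.07 (limma adjusted p = 0.46).

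Kcnj4, encoding Kir2.3, did not separate the groups. It measured 2.17, 2.22, 2.44 and 2.54 FPKM in Intact, 2.88, 2.51, 3.06 and 2.19 FPKM in Dissociated and 2.101, 2.71, 2.79 and 2.58 FPKM in MACS samples 1 to 4, with log2-fold changes of -0.06 ± 0.15 (limma adjusted p = 0.77) for MACS and 0.17 ± 0.12 (limma adjusted p = 0.35) for Dissociated samples. Kcnj2, encoding Kir2.1, was highest in intact ganglia. It measured 3.36, 2.27, 2.13 and 2.16 FPKM in Intact, 1.31, 1.64, 1.103 and 1.18 FPKM in Dissociated and 0.837, 0.131, 0.895 and 0.652 FPKM in MACS samples 1 to 4. All Dissociated samples were below all Intact samples (log2-fold change -0.87 ± 0.18, limma adjusted p = 0.013), and all MACS samples were below all Dissociated samples. With all 12 samples in one fit the first difference did not pass (limma adjusted p = 0.16). The last difference was not tested because the mean over those 8 samples was under 1 FPKM; without the filter it was -1.13 ± 0.45 (limma adjusted p = 0.076). Kcnj14, encoding Kir2.4, stayed at or below 0.457 FPKM.

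The most abundant GIRK gene was Kcnj3, at 4.76 to 7.52 FPKM in the group means. It encodes GIRK1, the subunit shared by most GIRK channels. It measured 5.56, 8.41, 7.75 and 8.38 FPKM in Intact, 6.67, 7.25, 6.96 and 9.15 FPKM in Dissociated and 4.04, 4.46, 6.15 and 4.39 FPKM in MACS samples 1 to 4. Every MACS sample was below every Dissociated sample, with a log2-fold change of -0.65 ± 0.15 (limma adjusted p = 0.0056). Exons of Kcnj3 share 1621 of 5215 bases with Gm26794 on the opposite strand, and how the counting treated strand is not given in the sources used here. Kcnj6, encoding GIRK2, measured 0.562, 0.639, 0.675 and 0.900 FPKM in Intact, 0.524, 0.689, 0.656 and 0.325 FPKM in Dissociated and 0.526, 2.11, 1.36 and 2.56 FPKM in MACS samples 1 to 4. MACS sample 1 lay among the Dissociated samples and the other 3 above them, for a log2-fold change of 1.27 ± 0.45 (limma adjusted p = 0.043). With a pseudocount of 1 it was 0.71. The call did not hold when any one Dissociated sample or MACS sample 3 was left out (limma adjusted p = 0.060 to 0.11), nor without the filter on low values (0.0503).

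Kcnj9, encoding GIRK3, was listed at 0.293 to 0.712 FPKM in Intact and Dissociated samples and at 0.0874 to 0.166 FPKM in MACS samples. Kcnj5, encoding GIRK4, was at or below 0.0131 FPKM. Of 15 Gi/o-coupled receptor genes whose products open GIRK channels, 13 were tested in MACS against Dissociated samples. Of these, 1 rose and 6 fell, with a median log2-fold change of -0.32, against 18.8% higher, 27.7% lower and a median of -0.04 over all genes tested. Adora1, the adenosine A1 receptor, rose by a log2-fold change of 0.29 ± 0.09 (limma adjusted p = 0.031). Those that fell were Cnr1, Oprl1, Oprd1, Adra2a, Adra2c and Chrm2. Adra2a and Chrm2 averaged 0.553 and 0.999 FPKM in MACS samples and entered the test only through the Dissociated samples. They carry no weight in the count of lower receptor genes, which is not read against that background. Oprd1, the delta opioid receptor, measured 3.80, 3.97, 4.16 and 3.78 FPKM in Dissociated and 1.62, 2.17, 1.62 and 1.56 FPKM in MACS samples (log2-fold change -1.14 ± 0.14, limma adjusted p = 0.00012). Oprm1, the mu opioid receptor, did not pass, at 3.53, 4.22, 4.77 and 3.12 FPKM and 5.02, 3.75, 5.46 and 3.35 FPKM (log2-fold change 0.16 ± 0.19, limma adjusted p = 0.53). In Dissociated against Intact samples 3 of 13 rose, which were Cnr1, Adra2c and Gabbr1, against 14.8% of all genes.

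The KATP pore gene Kcnj11, encoding Kir6.2, passed in neither comparison. It measured 3.24, 2.26, 2.53 and 2.19 FPKM in Intact, 3.29, 2.44, 3.81 and 2.99 FPKM in Dissociated and 3.31, 3.48, 3.54 and 2.83 FPKM in MACS samples 1 to 4, with log2-fold changes of 0.08 ± 0.15 (limma adjusted p = 0.69) for MACS and 0.28 ± 0.16 (limma adjusted p = 0.24) for Dissociated samples. Its partner Abcc8, the sulfonylurea receptor SUR1, lies 3.8 kb away on chromosome 7. Abcc8 measured 0.981, 1.58, 1.85 and 1.72 FPKM in Intact, 2.21, 2.08, 3.44 and 2.91 FPKM in Dissociated and 2.71, 1.63, 2.24 and 1.19 FPKM in MACS samples 1 to 4 and rose in Dissociated against Intact samples (log2-fold change 0.77 ± 0.23, limma adjusted p = 0.039) but did not pass in MACS against Dissociated samples (log2-fold change -0.47 ± 0.26, limma adjusted p = 0.17). The vascular pore gene Kcnj8, encoding Kir6.1, measured 1.41, 0.533, 0.479 and 0.584 FPKM in Intact, 0.821, 0.716, 0.565 and 0.499 FPKM in Dissociated and 0, 0, 0 and 0.135 FPKM in MACS samples 1 to 4. Abcc9, which encodes its partner SUR2 and lies 16.5 kb away on chromosome 6, measured 0.903, 0.941, 0.825 and 0.853 FPKM in Dissociated samples and at most 0.0957 FPKM in MACS samples. Both were thus at or below 0.135 FPKM in every MACS sample. Markers of pericytes and vascular smooth muscle were lower for 5 of 6 tested in MACS samples, and Tagln was at 0 in all 4, but Rgs5 was higher. Acta2, Myh11, Tagln and Notch3 averaged at most 0.254 FPKM in MACS samples and entered the test only through the Dissociated samples. These markers carry no weight in that count. Kcnj8 was tested only without the filter, at -2.58 ± 0.32 (limma adjusted p = 0.00025).

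Kcnj13, encoding Kir7.1 of transporting epithelia, was highest in intact ganglia. It measured 1.81, 1.56, 1.52 and 1.47 FPKM in Intact, 0.736, 0.322, 0.154 and 0.108 FPKM in Dissociated and 0, 0, 0.0496 and 0 FPKM in MACS samples 1 to 4. All Intact samples were above all Dissociated samples, which were all above the MACS samples, 3 of which were listed at 0. It was too low for the test in either comparison; without the filter the log2-fold change of Dissociated against Intact samples was -2.19 ± 0.39 (limma adjusted p = 0.010). Of its 1270 exon bases, 623 are shared with Gigyf2 on the opposite strand, a gene at 8.74, 8.60 and 7.78 FPKM in the 3 groups. In MACS samples Gigyf2 measured 7.35 to 8.78 FPKM, while 3 of the Kcnj13 values were listed at 0. Whether reads of one of these genes were counted for the other was not tested.

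Every tested tandem-pore gene passed the test in MACS against Dissociated samples, 3 of 9 higher and 6 lower, with a median log2-fold change of -0.96, against 18.8% higher, 27.7% lower and a median of -0.04 over all genes tested. One of the 6, Kcnk5, entered the test only through the Dissociated samples and carries no weight in that count. The 3 that rose were the halothane-inhibited channel genes Kcnk12 and Kcnk13 and the TRESK gene Kcnk18. Kcnk12 encodes THIK-2, a channel that is mostly kept inside the cell. It measured 6.43, 6.07, 6.09 and 6.69 FPKM in Intact, 5.88, 6.15, 6.65 and 5.52 FPKM in Dissociated and 19.6, 14.8, 16.1 and 12.4 FPKM in MACS samples 1 to 4. MACS samples were all above the others, 2.60-fold in the mean (log2-fold change 1.35 ± 0.13, limma adjusted p = 3.5e-05). Dissociated and Intact samples differed by -0.06 ± 0.08 (limma adjusted p = 0.58). Kcnk13 encodes THIK-1, best known as the leak channel of microglia. It measured 5.29, 3.96, 3.59 and 3.93 FPKM in Intact, 4.20, 4.01, 3.47 and 3.31 FPKM in Dissociated and 5.73, 9.56, 9.34 and 6.36 FPKM in MACS samples 1 to 4, and was 2.07-fold higher in MACS than Dissociated samples (log2-fold change 1.00 ± 0.18, limma adjusted p = 0.0013). MACS samples 2 and 3 were highest. The 7 macrophage markers each averaged below 0.5 FPKM in MACS samples and together summed to 0.7 to 2.8 FPKM there. Kcnk18, whose channel is controlled by calcineurin and is best known from sensory ganglia, measured 2.34, 3.33, 3.78 and 3.19 FPKM in Intact, 3.99, 3.91, 4.03 and 3.47 FPKM in Dissociated and 6.91, 6.71, 6.59 and 5.24 FPKM in MACS samples 1 to 4. It was 1.65-fold higher in MACS samples (log2-fold change 0.70 ± 0.11, limma adjusted p = 0.00070) without overlap. Beside these 3 genes the summed nociceptor markers measured 2640 to 2736 FPKM in Dissociated and 3073 to 4238 FPKM in MACS samples.

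Kcnk1 and Kcnk5 showed the widest differences among the tandem-pore genes that fell. Kcnk1, at chr8:125995102-126030688, encodes TWIK-1, a weakly conducting leak channel. It measured 20.3, 21.9, 25.7 and 22.6 FPKM in Intact, 32.5, 34.5, 38.6 and 36.4 FPKM in Dissociated and 4.75, 4.91, 5.63 and 7.90 FPKM in MACS samples 1 to 4. The groups were fully separated. The mean was 6.13-fold higher in Dissociated than MACS samples (log2-fold change -2.62 ± 0.15, limma adjusted p = 1.5e-06) and 1.57-fold higher in Dissociated than Intact samples (log2-fold change 0.65 ± 0.09, limma adjusted p = 0.0031). The large-diameter neuron markers summed to 1250 to 1511 FPKM in Intact, 2055 to 2448 FPKM in Dissociated and 404 to 566 FPKM in MACS samples, beside the satellite glia sums above. Of these markers, Pvalb measured 441 FPKM in Intact sample 1, which had the high skeletal muscle sum. It measured 61.8 to 67.8 FPKM in the other Intact samples. Kcnk5, encoding the alkaline-activated channel TASK-2, measured 3.30, 2.33, 2.83 and 2.52 FPKM in Intact, 2.36, 2.498, 1.94 and 2.15 FPKM in Dissociated and 0.0682, 0, 0.0537 and 0.551 FPKM in MACS samples 1 to 4. All MACS values were below all others, MACS sample 2 was listed at 0, and the log2-fold change was -3.52 ± 0.54 (limma adjusted p = 0.00052). Its size depended on the pseudocount, at -1.49 with 1 FPKM and -4.94 with 0.01 FPKM added. Its mean did not exceed 5 FPKM in any group, so it was not among the depleted genes. Intact and Dissociated samples overlapped (log2-fold change -0.28 ± 0.13, limma adjusted p = 0.16).

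The GRCm38.p6 windows of 250 bases upstream of the RefSeq starts of Kcnk5 (chr14:20181783-20182032, minus strand), Kcnk1 (chr8:125994852-125995101, plus strand), Kcnk12 (chr17:87797995-87798244, minus strand) and Kcnk13 (chr12:99964249-99964498, plus strand) are shown, the first 2 for genes lower and the last 2 for the related genes higher in MACS samples. Searched for the same motifs, Kcnk5 held GGGCGG at 3 places, Kcnk1 held ACAATG once (on the other strand), Kcnk12 held GGGCGG once (on the other strand), and Kcnk13 held none. The GC content was 62.8%, 44.4%, 64.8% and 52.8%, with 19, 0, 16 and 8 CpG. A promoter entry was found for 29 of the 37 genes, with 38 starts in all, of which 42.1% held GGGCGG, 7.89% TATAAA, 7.89% ACAATG, 10.5% ACAAAG and none TGACGTCA.
Kcnk5: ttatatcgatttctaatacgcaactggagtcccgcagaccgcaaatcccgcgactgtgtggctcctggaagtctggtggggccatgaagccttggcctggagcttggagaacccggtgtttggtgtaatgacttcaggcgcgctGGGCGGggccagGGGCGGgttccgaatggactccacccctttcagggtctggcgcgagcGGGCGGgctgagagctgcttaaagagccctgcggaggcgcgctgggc
Kcnk1: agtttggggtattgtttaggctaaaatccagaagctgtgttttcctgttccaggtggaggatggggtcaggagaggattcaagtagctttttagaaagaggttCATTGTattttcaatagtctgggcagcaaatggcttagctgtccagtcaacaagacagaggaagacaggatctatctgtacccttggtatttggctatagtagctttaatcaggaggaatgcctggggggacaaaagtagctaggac
Kcnk12: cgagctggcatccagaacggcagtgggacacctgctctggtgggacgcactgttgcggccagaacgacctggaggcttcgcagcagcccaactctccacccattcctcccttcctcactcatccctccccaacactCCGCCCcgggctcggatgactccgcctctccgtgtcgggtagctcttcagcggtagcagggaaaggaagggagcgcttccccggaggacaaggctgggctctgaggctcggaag
Kcnk13: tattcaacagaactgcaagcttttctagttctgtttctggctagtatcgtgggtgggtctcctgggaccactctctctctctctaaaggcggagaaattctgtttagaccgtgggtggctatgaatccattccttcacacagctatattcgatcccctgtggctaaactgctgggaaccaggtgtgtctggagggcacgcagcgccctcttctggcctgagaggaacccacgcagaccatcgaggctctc

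The mechano- and heat-gated TREK genes all fell in MACS samples. Kcnk2, encoding TREK-1, measured 5.99, 5.44, 4.68 and 6.41 FPKM in Intact, 5.60, 5.19, 4.55 and 6.12 FPKM in Dissociated and 3.12, 3.20, 3.10 and 1.69 FPKM in MACS samples 1 to 4. Every MACS sample was below every Dissociated sample, MACS sample 4 by the widest margin, and the log2-fold change was -0.96 ± 0.20 (limma adjusted p = 0.0037). Kcnk10, encoding TREK-2, measured 1.30, 2.32, 2.32 and 2.56 FPKM in Intact, 2.41, 2.28, 2.99 and 3.16 FPKM in Dissociated and 1.36, 1.07, 1.09 and 1.98 FPKM in MACS samples 1 to 4, with a log2-fold change of -0.96 ± 0.22 (limma adjusted p = 0.0053). Kcnk4, encoding TRAAK, measured 1.82, 3.00, 2.90 and 2.78 FPKM in Intact, 4.48, 4.02, 4.74 and 3.64 FPKM in Dissociated and 2.95, 1.99, 2.92 and 1.27 FPKM in MACS samples 1 to 4. It fell in MACS against Dissociated samples (log2-fold change -0.92 ± 0.25, limma adjusted p = 0.012) and rose in Dissociated against Intact samples (log2-fold change 0.68 ± 0.16, limma adjusted p = 0.020), without overlap in either. After quantile normalization Kcnk10 and Kcnk4 did not pass in MACS against Dissociated samples (limma adjusted p = 0.057 and 0.093). The rise of Kcnk4 did not hold without Dissociated sample 1 or 3 (limma adjusted p = 0.056 and 0.058), nor with all 12 samples in one fit (0.083). In GENCODE M21, Kcnk4 shares 587 exon bases on its own strand with Catsperz, listed as Tex40, which measured 4.08, 4.83 and 1.15 FPKM in the 3 groups. The loci listed with the FPKM do not overlap, as that of Tex40 has its upper coordinate at chr19:6925380 and that of Kcnk4 its lower coordinate at chr19:6925690. Whether reads of the shared bases were counted for either gene was not tested.

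Kcnk3 encodes the acid-sensitive channel TASK-1. It measured 6.11, 4.70, 4.01 and 5.33 FPKM in Intact, 5.67, 5.75, 5.29 and 6.27 FPKM in Dissociated and 2.77, 2.90, 2.78 and 1.99 FPKM in MACS samples 1 to 4. Every MACS sample was below every other sample, 2.20-fold in the mean against Dissociated samples (log2-fold change -1.12 ± 0.14, limma adjusted p = 0.00012). Against Intact samples its change did not pass (log2-fold change 0.20 ± 0.13, limma adjusted p = 0.28), but did without Intact sample 1 (limma adjusted p = 0.0497). The relatives Kcnk9 (TASK-3), Kcnk6 (TWIK-2), Kcnk7 and Kcnk16 reached no more than 0.938, 0.538, 0.677 and 0.548 FPKM.

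The calcium-activated genes diverged. Kcnn1 encodes SK1, which calcium opens through bound calmodulin and which contributes to the afterhyperpolarization. It measured 9.52, 8.34, 8.74 and 9.60 FPKM in Intact, 8.12, 7.43, 7.38 and 6.42 FPKM in Dissociated and 16.3, 18.9, 14.1 and 13.1 FPKM in MACS samples 1 to 4. MACS samples were all above the others, 2.13-fold in the mean against Dissociated samples (log2-fold change 1.07 ± 0.12, limma adjusted p = 8.8e-05). Dissociated samples were all below Intact samples (log2-fold change -0.30 ± 0.09, limma adjusted p = 0.040), a call that did not hold without Intact sample 3 or 4 or Dissociated sample 2, 3 or 4 (limma adjusted p = 0.066 to 0.10). Nor did that call hold with all 12 samples in one fit (limma adjusted p = 0.10). Kcnn2, encoding SK2, measured 3.81, 3.47, 3.58 and 3.46 FPKM in Intact, 4.73, 4.80, 5.25 and 4.73 FPKM in Dissociated and 5.14, 4.01, 3.81 and 6.90 FPKM in MACS samples 1 to 4. It rose in Dissociated against Intact samples (log2-fold change 0.44 ± 0.08, limma adjusted p = 0.0066), without overlap, but did not pass with all 12 samples in one fit (limma adjusted p = 0.083). Its MACS samples lay on both sides of the Dissociated samples, with a log2-fold change of -0.01 ± 0.17 (limma adjusted p = 0.96). Kcnn3, encoding SK3, was listed at 0.273 to 0.474 FPKM in Dissociated and 0.570 to 0.958 FPKM in MACS samples, and so did not overlap. It was too low for the test, and without the filter the log2-fold change was 0.74 ± 0.25 (limma adjusted p = 0.040).

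Kcnn4 encodes the intermediate-conductance channel, known from immune cells and as the Gardos channel of red blood cells. It measured 3.82, 3.68, 4.08 and 4.61 FPKM in Intact, 6.87, 5.95, 7.76 and 5.11 FPKM in Dissociated and 2.75, 1.56, 1.92 and 5.01 FPKM in MACS samples 1 to 4. It rose in Dissociated against Intact samples (log2-fold change 0.64 ± 0.13, limma adjusted p = 0.013) and fell in MACS against Dissociated samples (log2-fold change -1.29 ± 0.31, limma adjusted p = 0.0075), without overlap in either. The rise did not pass with all 12 samples in one fit (limma adjusted p = 0.14). MACS sample 4, at 5.01 FPKM, came close to the lowest Dissociated sample, at 5.11 FPKM. MACS sample 4 had the highest sum of red blood cell genes (12884 FPKM). Among MACS samples it was also highest in the summed Schwann cell, fibroblast, macrophage, satellite glia and endothelial markers. MACS sample 3, with 10073 FPKM of red blood cell genes, had Kcnn4 at 1.92 FPKM, and MACS sample 1, with 1521 FPKM, at 2.75 FPKM. The part of these cells in the level of Kcnn4 was not tested.

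Kcnt1 encodes Slack, a sodium-activated channel of sensory neurons. It lies at chr2:25863854-25918273 and measured 24.4, 35.4, 35.0 and 34.5 FPKM in Intact, 24.2, 23.6, 26.9 and 24.1 FPKM in Dissociated and 53.5, 54.1, 49.3 and 52.6 FPKM in MACS samples 1 to 4. All MACS samples were above all others, 2.12-fold in the mean against Dissociated samples (log2-fold change 1.08 ± 0.07, limma adjusted p = 2.1e-06). Against Intact samples, Dissociated samples were lower by a log2-fold change of -0.37 ± 0.12 (limma adjusted p = 0.059), which did not pass. Intact sample 1 lay among the Dissociated samples and the other Intact samples above them. Without it the log2-fold change was -0.50 (limma adjusted p = 0.00039). Its relative Kcnt2, encoding Slick, measured 2.08, 3.27, 3.08 and 2.44 FPKM in Intact, 2.63, 2.78, 2.33 and 2.12 FPKM in Dissociated and 1.70, 1.31, 1.66 and 1.09 FPKM in MACS samples 1 to 4. Every MACS sample was below every Dissociated sample (log2-fold change -0.75 ± 0.18, limma adjusted p = 0.0077), though after quantile normalization the difference did not pass (limma adjusted p = 0.30). Kcnt1 was therefore higher and Kcnt2 lower in the same samples, with mean levels of 52.4 and 1.44 FPKM in MACS samples.

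Kcnma1 encodes the BK pore, opened by voltage and calcium together. It measured 3.75, 6.88, 6.15 and 6.09 FPKM in Intact, 5.98, 6.25, 7.45 and 6.61 FPKM in Dissociated and 7.38, 8.52, 8.98 and 5.63 FPKM in MACS samples 1 to 4, and its groups overlapped. The log2-fold changes were 0.19 ± 0.15 (limma adjusted p = 0.31) for MACS and 0.23 ± 0.18 (limma adjusted p = 0.37) for Dissociated samples. Without MACS sample 4 the first was 0.33 and passed (limma adjusted p = 0.029). Kcnu1 encodes Slo3, known from sperm. It measured 1.15, 1.56, 1.30 and 1.08 FPKM in Intact, 0.828, 1.33, 1.17 and 1.15 FPKM in Dissociated and 1.12, 1.22, 1.02 and 1.65 FPKM in MACS samples 1 to 4, with log2-fold changes of 0.15 ± 0.23 (limma adjusted p = 0.63) and -0.17 ± 0.19 (limma adjusted p = 0.53). After quantile normalization the first was 0.71 and passed (limma adjusted p = 0.016).

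Of 10 genes for subunits that join KATP and BK channels, 5 were tested in MACS against Dissociated samples, of which 1 was higher and 0 lower. Over all genes tested 18.8% were higher and 27.7% lower, so the count of higher genes is close to that share. The 5 genes had a median log2-fold change of -0.02, against -0.04 over all genes tested. The gene that passed was Kcnmb1, the BK beta-1 subunit gene. It measured 6.61, 7.82, 7.85 and 6.93 FPKM in Intact, 9.73, 9.47, 9.01 and 8.41 FPKM in Dissociated and 17.1, 14.5, 14.5 and 12.8 FPKM in MACS samples 1 to 4, with log2-fold changes of 0.68 ± 0.10 (limma adjusted p = 0.00037) for MACS and 0.32 ± 0.08 (limma adjusted p = 0.027) for Dissociated samples. Its MACS samples were all above the Dissociated samples, which were all above the Intact samples. Kcnmb4, the neuronal beta-4 subunit gene, measured 19.5, 14.04, 13.95 and 16.0 FPKM in Intact, 14.4, 17.0, 17.0 and 15.4 FPKM in Dissociated and 17.1, 20.3, 19.2 and 11.04 FPKM in MACS samples 1 to 4 and did not pass (log2-fold change 0.05 ± 0.17, limma adjusted p = 0.83). Kcnmb2 measured 1.63, 1.71, 1.52 and 2.12 FPKM in Dissociated and 2.67, 1.35, 2.15 and 1.09 FPKM in MACS samples. Lrrc26 was listed at 0 in every sample, and Kcnmb3, Lrrc38 and Lrrc52 reached no more than 0.119, 0.421 and 0.126 FPKM.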

How the data were processed

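PolyA-selected RNA of 12 samples was sequenced as 100 bp reads, with directional libraries per the labels. The authors aligned reads to mm10 with TopHat2, merged them with SAMtools and estimated expression with Cufflinks 2.1.1, and deposited FPKM, which keep the authors' scaling by mapped fragments. No read counts were used, so depth was estimated from the spacing of low FPKM values, assuming fragments of 150 bases. Exon overlaps came from GENCODE M21 and promoters from RefSeq GRCm38.p6.

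Groups followed the sample titles. They were compared with limma 3.58.1 (R 4.3.3) on log2(FPKM + 0.1), two-sided, with an intensity trend and Benjamini-Hochberg adjustment over all genes averaging 1 FPKM or more in the 8 samples. limma stood in for CuffDiff, which needs aligned reads. A gene passed at an adjusted p under 0.05, and was enriched or depleted if the log2 ratio of means was also beyond 0.5 and the higher mean above 5 FPKM. Fold changes with SE are on the log2(FPKM + 0.1) scale, which understates changes of low genes, and errors of levels are SD. Every member reaching a group mean of 1 FPKM was named with all its values. Members and gene lists were chosen with earlier results of these data known. The fit was tested on simulated data with known changes.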

Additional observations from a re-analysis of the deposited data

Results flagged for a closer look

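In 9 of 75 groups of 4 samples, 1 sample lay far from the other 3 by Dixon's test, and chance gives about 1 in 20. MACS sample 4 was lowest for Kcnk2, at 1.69 FPKM against 3.10 to 3.20 FPKM in the others, and for Kcnk3, at 1.99 FPKM against 2.77 to 2.90 FPKM. The same sample was highest for Kcnk5, at 0.551 FPKM against 0 to 0.0682 FPKM. MACS sample 3 was listed at 0.0496 FPKM for Kcnj13, where the others were at 0, so that any value above 0 there would have been marked. Leaving that group out, 8 of 74 were marked. Intact sample 1 was highest for Kcnj2, at 3.36 FPKM against 2.13 to 2.27 FPKM, and lowest for Kcnt1, at 24.4 FPKM against 34.5 to 35.4 FPKM. Intact sample 4 was highest for Kcnj12, at 13.4 FPKM against 12.4 to 12.5 FPKM. Dissociated sample 3 was highest for Kcnn2, at 5.25 FPKM against 4.73 to 4.80 FPKM, and for Kcnt1, at 26.9 FPKM against 23.6 to 24.2 FPKM.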

How the results depend on the processing

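Over 848 refits of single genes under other settings, 790 kept direction and side of the threshold, 36 lost the call, 5 gained one and 17 changed sign, all of them for genes that passed in neither fit. Without a filter on low values 16 genes were lower in MACS than Dissociated samples. Over all genes 6753 of 17657 then passed, 35.5% of them higher. With a filter of 5 FPKM 3 were lower, and over all genes 3851 of 8128 passed, 45.7% of them higher. The depleted genes were 3 with that filter and 10 when a mean above 1 FPKM was enough. For these counts of depleted genes the share over all genes was not computed. In Dissociated against Intact samples, 3 genes were higher and 1 lower with the filter of 5 FPKM, and 2 were higher and 1 lower with all 12 samples in one fit. Over all genes 2083 of 8406 and 1719 of 12392 passed in these fits, 75.3% and 68.5% of them higher. With Dissociated samples 1 and 2 averaged, 6 were higher and 10 lower in MACS samples, and 4 higher and 2 lower in Dissociated samples, where Kcnj13 then passed the filter. Over all genes 4774 of 11982 and 1692 of 12401 passed, 40.0% and 63.9% of them higher. The cause of the shifts in these counts, beyond the genes a filter admits, was not tested. Replicate numbers did not pair the samples (correlations of deviations of same-numbered samples -0.143 to 0.051). With the replicate block, 6 genes were higher and 10 lower in MACS samples, and 5 were higher and 1 lower in Dissociated than Intact samples. Over all genes 5171 of 12038 and 2287 of 12392 passed, 40.1% and 62.9% of them higher. Leaving out 1 sample at a time gave 6 to 7 higher and 10 to 11 lower genes in MACS samples, and 4 to 7 higher and 1 to 3 lower genes in Dissociated samples. The share over all genes was not computed with samples left out. Quantile normalization moved the median log2-fold change of all genes from -0.04 to 0.10 in MACS against Dissociated samples, and the share of higher genes among those that passed from 40.4% to 59.5%.

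The sign changes were these. In MACS against Dissociated samples, Kcnj4 came to 0.00066 with median-ratio size factors and 0.32 with quantile normalization, and Kcnn2 to 0.048 and 0.23, and to 0.024 with red blood cell genes removed. In Dissociated against Intact samples, Kcnj3 came to -0.00035 with median-ratio size factors and -0.0028 with quantile normalization, and Kcnt2 to 0.0083 with the latter. Leaving out single samples gave Kcnj4 values of -0.15 to 0.026, Kcnn2 of -0.18 to 0.10 and Kcnj11 of -0.029 to 0.18 in the first comparison, and Kcnj3 of -0.13 to 0.064 and Kcnk2 of -0.15 to 0.0074 in the second.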

Other observations

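Several of these genes are neighbours. Kcnj9 and Kcnj10 lie 11.9 kb apart on chromosome 1 with no listed gene between them, and in Dissociated samples measured 0.506 and 20.5 FPKM (means of 4), against 0.127 and 0.119 FPKM in MACS samples. Kcnj16 and Kcnj2 lie 38.2 kb apart on chromosome 11. The first was higher and the second lower in Dissociated than Intact samples, at 1.49 against 0.878 FPKM for Kcnj16 and 1.31 against 2.48 FPKM for Kcnj2. Kcnk5 and Kcnk16 lie 81.0 kb apart on chromosome 14, and Kcnk16 stayed at or below 0.548 FPKM. Kcnj6 and Kcnj15 lie 259.9 kb apart on chromosome 16. In MACS samples Kcnj6 had a mean of 1.64 FPKM and Kcnj15 of 0.0232 FPKM.

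Exons of 13 of the 37 genes overlap another annotated gene. Beside Kcnj3, Kcnj13 and Kcnk4 the shared stretches were on the opposite strand and at most 1016 bases long, for Kcnma1.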
